A study of Homo sapiens with 9 samples.

Results

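Genes whose symbols begin with RAB, SNX or VPS and a digit were examined in macrophage-like cells given 1 of 2 anticancer drugs or vehicle. Members were taken by a symbol rule among the named rows of the array table, chosen with earlier results of these data known. The brightest row was kept for a gene with several rows. In all 77 genes were found among 14884 named genes, 13 with the RAB prefix, 28 with SNX and 36 with VPS. Of the 77, 71 are protein-coding, 4 are long non-coding RNAs and 2 are transcribed pseudogenes. The set holds almost no RAB GTPases: of 64 RAB GTPase genes of RefSeq that were looked for, only RAB6D was named in the table, and the others, RAB1A, RAB5A, RAB7A, RAB11A and RAB27A among them, were not analysed here. The RAB-prefixed members are therefore mostly effectors and regulators of RAB proteins, and the genes are called here RAB effectors, sorting nexins and VPS genes. Sorting nexins are covered by 26 of 30 protein-coding genes of RefSeq and VPS genes by 34 of 35; VPS16 was not analysed here.

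All 9 samples were THP-1 cells, 1 human monocytic leukaemia line, turned to a macrophage-like M0 state with the phorbol ester PMA. They received osimertinib at 100 nM, a covalent inhibitor of mutant epidermal growth factor receptor, cisplatin at 0.5 µM, a platinum compound that crosslinks DNA, or vehicle, each for 16 h, with 3 biological replicates per group; p-values therefore measure the spread between replicates of 1 line. Total RNA of each replicate was read on 1 Affymetrix Human Gene 2.0 ST array, and levels are given on the deposited scale, read as log2. Of 12 listed macrophage markers 7 were named, and 6 of these lay at or above the level limit described below. CD68 was at a mean of 9.71 and CSF1R at 8.83, while CD14 was close to the limit at 4.30 and LYZ lay below it at 3.25. Of these 6, CD68 and CSF1R were higher and LAPTM5 lower with each drug. Of 9 listed T and B lymphocyte markers 2 were named, CD8A above the limit at 4.47 and CD2 below it at 3.07. The epithelial EPCAM (2.84), KRT19 (3.35) and CLDN4 (3.40) lay below the limit and KRT8 (4.66) above it. KRT18 averaged 7.40 with osimertinib, 7.36 with cisplatin and 7.71 with vehicle and fell with both drugs. The part of these marker shifts in the results was not tested.

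RAB GTPases mark membranes and recruit effectors that move, tether and fuse vesicles. Sorting nexins bind the phosphoinositide lipids of endosomes, and those with a BAR domain bend the membrane into tubules that carry receptors back to the cell surface or the Golgi. VPS proteins, named after yeast mutants in vacuolar protein sorting, build the retromer, which retrieves receptors, the tethers CORVET, of early endosomes, and HOPS, of late endosomes and lysosomes, the GARP tether of the trans-Golgi, and the ESCRT complexes, which pull ubiquitinated receptors into the endosome lumen. In macrophages this system handles phagosomes, takes receptors off the surface and delivers cargo to lysosomes. The VPS13 proteins differ from the rest, since they form bridges along which lipids pass between organelles.

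Promoters are shown for SNX3 and SNX4, which rose with both drugs and differed between them, and VPS13A, VPS13C and VPS13D, which fell with cisplatin. VPS18, RAB11FIP4, SNX30, VPS26A and VPS13B were also called, but their promoters were not in the promoter set used here. The 250 bases before each gene's start are given 5′ to 3′ on the gene's strand, from RefSeq on GRCh38.p14; capitals mark the core of the antioxidant response element (TGACNNNGC, either strand), the only one of 5 motifs found in them. They lie at chr6:108261041-108261290 (minus strand) for SNX3, chr3:125520203-125520452 (minus strand) for SNX4, chr9:77177284-77177533 (plus strand) for VPS13A, chr15:62060448-62060697 (minus strand) for VPS13C and chr1:12229780-12230029 (plus strand) for VPS13D.
SNX3: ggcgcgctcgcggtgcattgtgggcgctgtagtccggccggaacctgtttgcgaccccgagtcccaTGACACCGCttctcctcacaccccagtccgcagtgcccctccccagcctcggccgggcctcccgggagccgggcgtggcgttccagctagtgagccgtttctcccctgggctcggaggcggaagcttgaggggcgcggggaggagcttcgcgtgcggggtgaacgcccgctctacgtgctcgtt
SNX4: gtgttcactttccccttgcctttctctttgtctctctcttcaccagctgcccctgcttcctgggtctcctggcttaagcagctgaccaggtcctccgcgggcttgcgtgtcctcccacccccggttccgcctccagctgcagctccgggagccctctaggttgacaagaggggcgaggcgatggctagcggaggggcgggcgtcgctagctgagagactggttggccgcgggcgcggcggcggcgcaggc
VPS13A: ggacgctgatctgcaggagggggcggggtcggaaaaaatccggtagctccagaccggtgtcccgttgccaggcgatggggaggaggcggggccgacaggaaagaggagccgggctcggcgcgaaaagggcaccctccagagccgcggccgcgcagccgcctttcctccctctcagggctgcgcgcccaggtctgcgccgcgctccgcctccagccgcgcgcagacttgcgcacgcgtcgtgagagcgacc
VPS13C: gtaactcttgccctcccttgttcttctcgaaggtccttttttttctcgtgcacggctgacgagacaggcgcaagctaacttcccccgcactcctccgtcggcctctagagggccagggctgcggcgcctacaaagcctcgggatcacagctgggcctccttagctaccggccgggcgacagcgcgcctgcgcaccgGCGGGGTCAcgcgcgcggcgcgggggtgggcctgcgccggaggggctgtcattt
VPS13D: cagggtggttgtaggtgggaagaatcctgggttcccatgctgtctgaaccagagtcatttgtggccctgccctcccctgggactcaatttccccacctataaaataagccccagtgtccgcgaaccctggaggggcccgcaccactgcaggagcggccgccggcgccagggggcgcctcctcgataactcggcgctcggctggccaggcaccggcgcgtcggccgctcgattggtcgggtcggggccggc

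Counting from 1 at the 5′ end, the match covers bases 67 to 75 in SNX3 and 197 to 205 in VPS13C. The motif was found in 9 of 45 promoters of tested members (20%), in 12.5% of 5861 promoters of tested genes and in 11% of all 27305 promoters. Of the 45, CACGTG, the core of the CLEAR element bound by TFEB, a regulator of lysosome genes, was in 6 (13.3%, against 8.74% of tested genes and 6.33% of all promoters), and TGANTCA, bound by AP-1, was in 2 (4.44%, 3.96% and 6.74%). The heat shock unit GAANNTTC was in 1 (2.22%, 3.87% and 5.93%) and the C/EBP-ATF element TGATGNAA in 0 (1.31% and 3.26%), all searched on both strands and counted once per promoter. Of the 15 promoters of members that rose with osimertinib, 0 held CACGTG and 3 held the antioxidant core. These are matches of letters and say nothing of binding.

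Of the 77 members, 61 were bright enough to test: 9 with the RAB prefix, 19 sorting nexins and 33 VPS genes. The limit was the median of the means of all named genes, 4.28; the members just above it were VPS9D1-AS1 (4.44), VPS51 (4.70) and VPS54 (4.89), and those just below it SNX29P2 (4.21), RAB3IL1 (4.13) and SNX24 (4.07). Array medians ran from 3.29 to 3.37. In a principal component analysis of the 61 members the first component held 64.7% of the variance and placed osimertinib arrays at 0.955 to 1.42, cisplatin arrays at 0.303 to 0.922 and vehicle arrays at -2.03 to -1.74. Cisplatin replicate 1 stood apart on the second component (17.5% of the variance), at -1.75, while the other arrays lay between -0.367 and 0.973. Its median member level, 6.01, was also the lowest, against 6.17 to 6.21 on the other cisplatin arrays, 6.24 to 6.46 with osimertinib and 6.17 to 6.22 with vehicle.

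With osimertinib 29 of the 61 members changed, 20 higher and 9 lower, and with cisplatin 24 changed, 14 higher and 10 lower (limma, adjusted p under 0.05 over 7442 genes). Over all tested genes 30.6% were called with osimertinib and 31.0% with cisplatin, where 47.5% of members were with osimertinib and 39.3% with cisplatin. Members higher with osimertinib made up 32.8%, against 16.9% of all tested genes, and members lower 14.8% against 13.7%. With cisplatin 23% were higher, against 16.5% of all genes, and 16.4% lower, against 14.5%. The osimertinib and vehicle arrays did not overlap for 41 members (67.2%; 44.1% of all genes), and the cisplatin and vehicle arrays for 35 (57.4%; 42.3%). The median member changed by 0.14 with osimertinib and 0.07 with cisplatin, where the median of all tested genes was 0.04 with osimertinib and 0.03 with cisplatin. Both comparisons use the same 3 vehicle arrays, and the array measures RNA of the whole culture, so fewer cells of a type and less RNA per cell cannot be told apart.

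Most changes were small. At least 1.5-fold were 5 members with osimertinib (8.2%; 9.14% of all genes), all higher: VPS18, RAB11FIP4, SNX3, SNX4 and SNX33. With cisplatin there were 4 (6.56%; 8.94%): VPS18, SNX33 and SNX20 higher and VPS45 lower. The split between higher and lower calls moved with scaling: median centring gave 22 higher and 3 lower with osimertinib and 14 and 6 with cisplatin, and added quantile normalization gave 27 higher and 7 lower with osimertinib and 23 and 11 with cisplatin. Without cisplatin replicate 1 the cisplatin count was 22, with 15 higher and 7 lower.

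**Figure D1:**
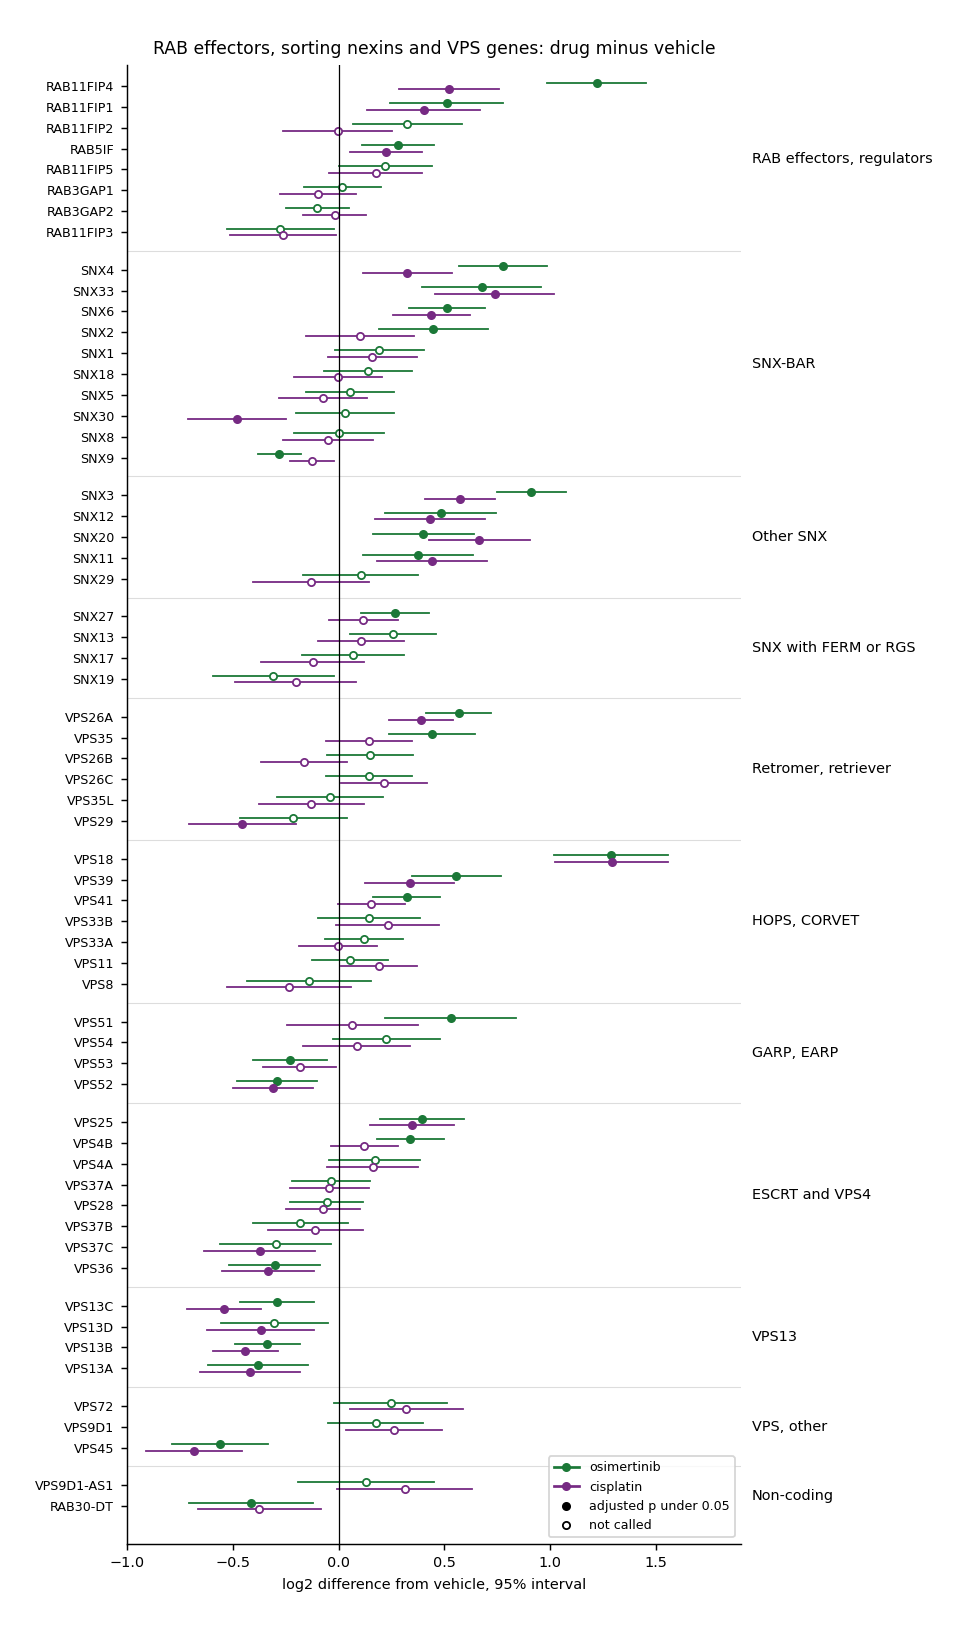
Log2 difference from vehicle (x axis) for the 61 tested members, grouped by role, for osimertinib (green, upper) and cisplatin (purple, lower). Points are estimates, bars 95% intervals from n = 3 arrays per group, and filled points have an adjusted p under 0.05; VPS18 lies farthest right with both drugs and the 4 VPS13 genes lie left of 0.

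Among the RAB effectors and regulators 3 of 8 tested genes rose with each drug and 0 fell by limma (at an unadjusted p under 0.05, 1 lower with osimertinib and 1 with cisplatin). Of all tested genes 16.9% were called higher and 13.7% lower with osimertinib, and 16.5% higher and 14.5% lower with cisplatin. At an unadjusted p under 0.05, 17.8% of all tested genes were lower with osimertinib and 18.5% with cisplatin. RAB11FIP4, an effector that links the recycling-endosome GTPase RAB11 to its carriers, had log2 levels of 7.24, 7.30 and 7.24 with osimertinib, 6.33, 6.63 and 6.72 with cisplatin and 6.005, 6.22 and 5.89 with vehicle. All osimertinib arrays lay above all cisplatin arrays, which lay above all vehicle arrays. The rise was 2.33-fold with osimertinib, a log2 difference of 1.22 (SE 0.109, adjusted p = 3.42e-06), and 1.44-fold with cisplatin, 0.52 (SE 0.109, adjusted p = 0.00254). RAB11FIP1, another RAB11 effector, had log2 levels of 5.52, 5.75 and 5.44 with osimertinib, 5.37, 5.59 and 5.43 with cisplatin and 5.27, 5.05 and 4.87 with vehicle. It rose with both drugs, by 0.51 (adjusted p = 0.00659) with osimertinib and 0.40 (adjusted p = 0.0251) with cisplatin on the log2 scale, and its treated arrays lay above all vehicle arrays. RAB5IF, named after the early-endosome GTPase RAB5, rose by 0.28 with osimertinib and 0.23 with cisplatin.

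The other RAB-prefixed coding genes gave no call. RAB11FIP2 differed from vehicle by 0.32 (adjusted p = 0.0559) with osimertinib and 0.00 with cisplatin, RAB11FIP5 by 0.22 with osimertinib and 0.18 with cisplatin, and RAB11FIP3 by -0.28 with osimertinib and -0.26 with cisplatin. RAB3GAP1 and RAB3GAP2, the subunits of a complex that inactivates RAB3 and activates RAB18, differed by 0.02 and -0.10 with osimertinib and -0.10 and -0.02 with cisplatin. The call of RAB11FIP1 with cisplatin ended without cisplatin replicates 2 or 3 or vehicle replicates 2 or 3, or with no level filter (adjusted p = 0.0503 to 0.111). RAB5IF with osimertinib was no longer called without osimertinib replicate 1 or vehicle replicate 3 (adjusted p = 0.0507 to 0.0556). The RAB5IF call with cisplatin was lost without osimertinib replicates 2 or 3, cisplatin replicates 2 or 3 or vehicle replicates 1, 2 or 3, or with no level filter or a replicate block (adjusted p = 0.0501 to 0.133).

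Of the 10 tested sorting nexins with a BAR domain, 4 rose and 1 fell with osimertinib, and 3 rose and 1 fell with cisplatin. The shares of all tested genes were 16.9% higher and 13.7% lower with osimertinib, and 16.5% higher and 14.5% lower with cisplatin. SNX4, which recycles receptors and takes part in autophagosome assembly, had log2 levels of 7.62, 7.53 and 7.24 with osimertinib, 6.90, 7.13 and 7.003 with cisplatin and 6.65, 6.70 and 6.71 with vehicle. The osimertinib arrays were highest and the vehicle arrays lowest, with no overlap between any of the groups. Its rise was 1.71-fold with osimertinib, 0.78 (SE 0.0968, adjusted p = 5.19e-05) on the log2 scale, and 1.25-fold with cisplatin, 0.33 (SE 0.0968, adjusted p = 0.0209). SNX30, a partner with which SNX4 pairs, went another way, at 6.46, 6.45 and 6.32 with osimertinib, 5.67, 5.99 and 6.05 with cisplatin and 6.51, 6.32 and 6.32 with vehicle. Only the cisplatin arrays stood apart from vehicle, all of them lower. SNX30 fell 1.39-fold with cisplatin, -0.48 (SE 0.107, adjusted p = 0.00412), and was at 0.03 (adjusted p = 0.869) with osimertinib. SNX7, the other partner of SNX4, lay below the level limit.

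SNX33, an SH3-domain nexin that works with dynamin in endocytosis, had log2 levels of 5.49, 5.33 and 5.48 with osimertinib, 5.33, 5.61 and 5.53 with cisplatin and 4.63, 5.04 and 4.59 with vehicle. It rose 1.6-fold with osimertinib, 0.68 (SE 0.13, adjusted p = 0.00143), and 1.67-fold with cisplatin, 0.74 (SE 0.13, adjusted p = 0.000772), with no overlap with vehicle in either case. Its relative SNX9, also a dynamin partner, had 9.06, 9.12 and 9.03 with osimertinib, 9.18, 9.22 and 9.27 with cisplatin and 9.33, 9.39 and 9.32 with vehicle. SNX9 fell with osimertinib at a log2 difference of -0.28 (SE 0.0474, adjusted p = 0.000566), while its cisplatin difference was -0.13 (adjusted p = 0.0604). The third relative, SNX18, differed by 0.14 with osimertinib and 0.00 with cisplatin, neither called.

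SNX1, SNX2, SNX5 and SNX6 pair with each other to coat endosomal tubules. SNX6 rose with both drugs, by 0.51 (SE 0.0836, adjusted p = 0.000428) with osimertinib and 0.44 (SE 0.0836, adjusted p = 0.00136) with cisplatin, at log2 levels of 7.15, 7.29 and 7.12 with osimertinib, 7.03, 7.07 and 7.24 with cisplatin and 6.66, 6.60 and 6.77 with vehicle. SNX2 rose with osimertinib (0.45, adjusted p = 0.011) and stood at 0.10 (adjusted p = 0.558) with cisplatin. SNX1 was at 0.19 with osimertinib and 0.16 with cisplatin, SNX5 at 0.05 with osimertinib and -0.07 with cisplatin, and the further BAR nexin SNX8 at 0.00 with osimertinib and -0.05 with cisplatin, none of them called. The call of SNX4 with cisplatin ended without cisplatin replicates 2 or 3 or vehicle replicates 1 or 2 (adjusted p = 0.0506 to 0.0876). SNX2 with osimertinib was no longer called without osimertinib replicate 1 (adjusted p = 0.0506).

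Of the 5 tested nexins outside the BAR, FERM and RGS subfamilies, 4 rose with each drug and 0 fell by limma (at an unadjusted p under 0.05, 0 lower with osimertinib and 0 with cisplatin). With so few genes the count is a description, beside 16.9% of all tested genes called higher with osimertinib and 16.5% with cisplatin. Lower calls made up 13.7% of all tested genes with osimertinib and 14.5% with cisplatin. SNX3, the nexin that brings retromer to endosomes for retrieval of the Wnt carrier Wntless, had log2 levels of 8.19, 8.24 and 7.99 with osimertinib, 7.70, 7.85 and 7.85 with cisplatin and 7.19, 7.23 and 7.27 with vehicle. The 3 groups formed separate steps, osimertinib above cisplatin and cisplatin above vehicle. The rise was 1.88-fold with osimertinib, 0.91 (SE 0.0761, adjusted p = 2.1e-06), and 1.49-fold with cisplatin, 0.57 (SE 0.0761, adjusted p = 8.89e-05). SNX12, the closest relative of SNX3, rose by 0.48 (adjusted p = 0.00819) with osimertinib and 0.43 (adjusted p = 0.0153) with cisplatin, and SNX11 by 0.38 (adjusted p = 0.0294) with osimertinib and 0.44 (adjusted p = 0.0132) with cisplatin. SNX20, a leukocyte nexin that binds the selectin ligand PSGL-1, had 5.98, 5.79 and 5.63 with osimertinib, 6.01, 6.01 and 6.16 with cisplatin and 5.54, 5.28 and 5.37 with vehicle. It rose by 0.40 (SE 0.111, adjusted p = 0.0139) with osimertinib and 0.66 (SE 0.111, adjusted p = 0.000504) with cisplatin. SNX29 was at 0.10 with osimertinib and -0.13 with cisplatin and was not called; its pseudogenes SNX29P1 and SNX29P2 may share its probe sequences. The SNX12 call with cisplatin was lost without cisplatin replicate 2 or vehicle replicates 1 or 3 (adjusted p = 0.0535 to 0.0791). The call of SNX11 with osimertinib ended without osimertinib replicates 1, 2 or 3 or vehicle replicates 1 or 3, or with no level filter (adjusted p = 0.0557 to 0.128). SNX11 with cisplatin was no longer called without cisplatin replicates 2 or 3 or vehicle replicate 1 (adjusted p = 0.0513 to 0.0631). The SNX20 call with osimertinib was lost without osimertinib replicate 1 or vehicle replicate 2 (adjusted p = 0.0606 to 0.0643).

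Nexins of the FERM and RGS subfamilies gave 1 call among 4 tested genes, where 30.6% of all tested genes were called with osimertinib and 31.0% with cisplatin. SNX27, which works with retromer to return receptors to the plasma membrane, rose with osimertinib by 0.27 (adjusted p = 0.016), at log2 levels of 8.37, 8.22 and 8.21 with osimertinib, 7.99, 8.20 and 8.17 with cisplatin and 7.89, 8.05 and 8.07 with vehicle, and was at 0.12 (adjusted p = 0.265) with cisplatin. SNX17, the cargo adaptor of retriever, was at 0.07 with osimertinib and -0.12 with cisplatin, SNX13 at 0.26 with osimertinib and 0.11 with cisplatin, and SNX19 at -0.31 with osimertinib and -0.20 with cisplatin, none of them called. The call of SNX27 with osimertinib ended without osimertinib replicate 1 or vehicle replicate 1 (adjusted p = 0.0716 to 0.0754).

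**Figure D2:**
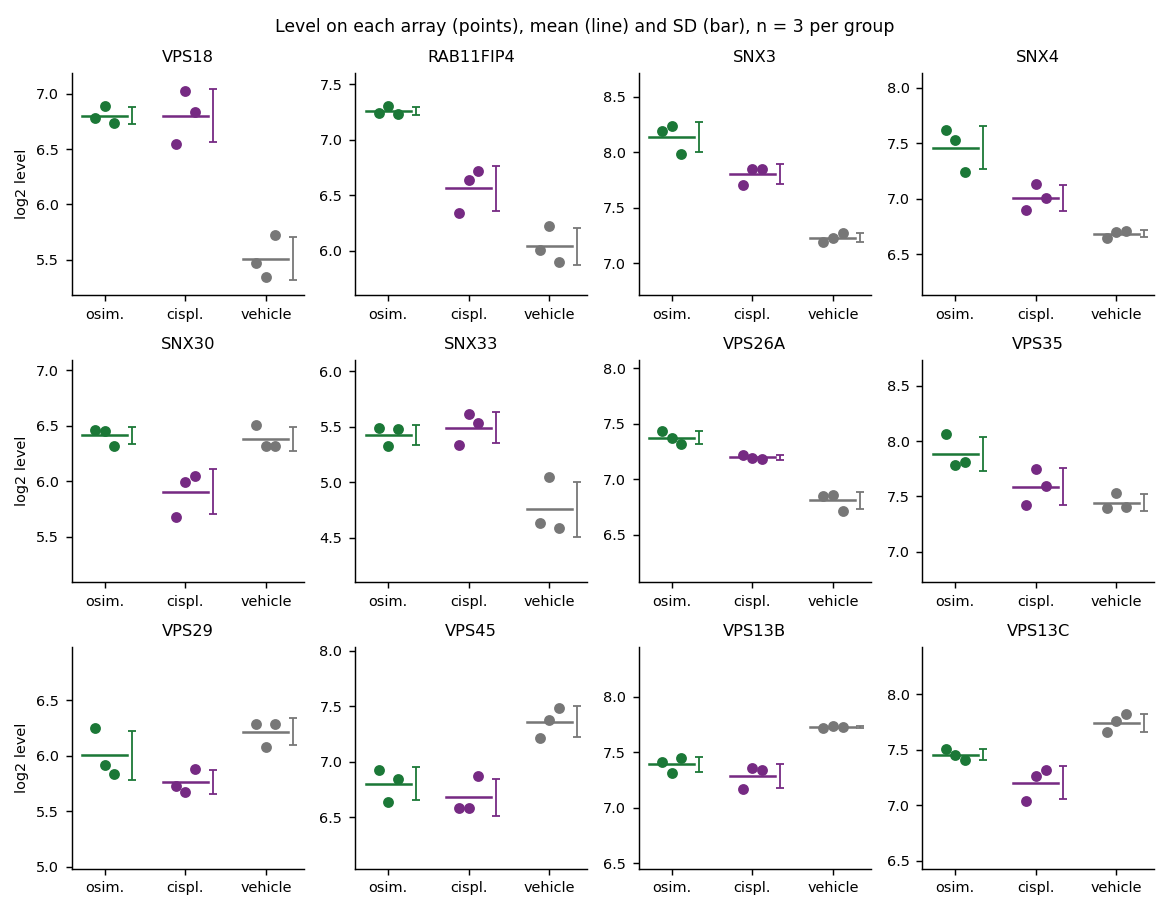
Log2 level on each array (y axis, a range of 2 units in every panel) for 12 members with osimertinib, cisplatin and vehicle (x axis). Points are arrays, lines means and bars SDs (n = 3 per group). For RAB11FIP4, SNX3, SNX4, VPS26A and VPS13C none of the 3 groups overlap. For VPS45, VPS13B and VPS13C both treated groups lie below vehicle.

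The retromer subunits did not move as 1 unit. VPS26A, the arrestin-like subunit that docks on SNX3 and SNX27, had log2 levels of 7.43, 7.37 and 7.32 with osimertinib, 7.22, 7.19 and 7.18 with cisplatin and 6.85, 6.86 and 6.71 with vehicle, with the osimertinib arrays highest and the vehicle arrays lowest. It rose by 0.57 (SE 0.0705, adjusted p = 5.12e-05) with osimertinib and 0.39 (SE 0.0705, adjusted p = 0.000952) with cisplatin. VPS35, the scaffold of the complex, had 8.06, 7.78 and 7.81 with osimertinib, 7.42, 7.75 and 7.59 with cisplatin and 7.40, 7.53 and 7.40 with vehicle, rose with osimertinib by 0.44 (SE 0.0941, adjusted p = 0.00296) and was at 0.15 (adjusted p = 0.271) with cisplatin. VPS29, the small subunit that binds RAB7 regulators and is shared with retriever, had 6.26, 5.92 and 5.84 with osimertinib, 5.73, 5.68 and 5.88 with cisplatin and 6.29, 6.08 and 6.29 with vehicle. It fell with cisplatin at a log2 difference of -0.45 (SE 0.117, adjusted p = 0.00963), and its osimertinib arrays overlapped vehicle (-0.21, adjusted p = 0.195). The alternative subunit VPS26B was at 0.15 with osimertinib and -0.16 with cisplatin. The retriever subunits VPS26C, at 0.14 with osimertinib and 0.21 with cisplatin, and VPS35L, at -0.04 with osimertinib and -0.13 with cisplatin, gave no call. Over the 6 genes, 2 rose and 0 fell with osimertinib by limma (0 lower at an unadjusted p under 0.05), and 1 rose and 1 fell with cisplatin. Of all tested genes 16.9% rose and 13.7% fell with osimertinib (17.8% lower at an unadjusted p under 0.05). With cisplatin 16.5% of all tested genes rose and 14.5% fell.

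HOPS and CORVET tether late and early endosomes and share a core that includes VPS11, VPS18 and VPS33A. VPS18 was the largest rise among all 61 members with both drugs, 2.44-fold with each. Its log2 levels were 6.78, 6.89 and 6.73 with osimertinib, 6.55, 7.03 and 6.83 with cisplatin and 5.47, 5.34 and 5.72 with vehicle, so that every treated array lay above every vehicle array. The differences were 1.29 (SE 0.124, adjusted p = 6.55e-06) with osimertinib and 1.29 (SE 0.124, adjusted p = 6.61e-06) with cisplatin. The other core subunits were not called: VPS11 was at 0.05 (adjusted p = 0.662) with osimertinib and 0.19 (adjusted p = 0.0979) with cisplatin, and VPS33A at 0.12 with osimertinib and 0.00 with cisplatin. VPS39 and VPS41 belong to HOPS and not to CORVET. VPS39 rose by 0.56 (SE 0.0973, adjusted p = 0.000696) with osimertinib and 0.34 (adjusted p = 0.0179) with cisplatin, at 8.25, 8.07 and 8.06 with osimertinib, 7.68, 8.04 and 8.002 with cisplatin and 7.44, 7.62 and 7.65 with vehicle. VPS41 rose with osimertinib by 0.32 (adjusted p = 0.00456) and was at 0.15 (adjusted p = 0.13) with cisplatin. VPS8, found in CORVET, was at -0.14 with osimertinib and -0.23 with cisplatin, and VPS33B, a relative of VPS33A that acts with VIPAS39, at 0.14 with osimertinib and 0.23 with cisplatin. Over the 7 genes 3 rose with osimertinib and 2 with cisplatin, and 0 fell by limma (at an unadjusted p under 0.05, 0 with osimertinib and 0 with cisplatin). Of all tested genes 16.9% rose and 13.7% fell with osimertinib, and 16.5% rose and 14.5% fell with cisplatin. At an unadjusted p under 0.05, 17.8% of all tested genes were lower with osimertinib and 18.5% with cisplatin. VPS39 with cisplatin was no longer called without cisplatin replicates 2 or 3 or vehicle replicate 1 (adjusted p = 0.0749 to 0.0817).

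GARP, the tether that receives endosomal carriers at the trans-Golgi, is built of VPS51, VPS52, VPS53 and VPS54. Of these 1 rose and 2 fell with osimertinib and 1 fell with cisplatin. Over all tested genes 16.9% rose and 13.7% fell with osimertinib, and 16.5% rose and 14.5% fell with cisplatin. VPS52 fell at a log2 difference of -0.29 (adjusted p = 0.0229) with osimertinib and -0.31 (adjusted p = 0.0164) with cisplatin, at log2 levels of 7.19, 6.95 and 7.10 with osimertinib, 6.90, 7.19 and 7.08 with cisplatin and 7.36, 7.42 and 7.33 with vehicle. VPS53 fell with osimertinib at a log2 difference of -0.23 (adjusted p = 0.0456) and was at -0.18 (adjusted p = 0.103) with cisplatin. VPS51 rose with osimertinib by 0.53 (adjusted p = 0.0126) and was at 0.07 (adjusted p = 0.774) with cisplatin; a second row for VPS51 gave 0.17 with osimertinib and 0.21 with cisplatin, neither called over all rows. VPS54 was at 0.23 with osimertinib and 0.09 with cisplatin, and VPS50, the subunit that replaces it in the EARP tether, lay below the level limit. A second row for VPS52 gave -0.16 with each drug, not called. The VPS52 call with osimertinib was lost without osimertinib replicate 2 or vehicle replicates 1 or 2, or with median centring or the mean over all rows (adjusted p = 0.0546 to 0.108). The call of VPS52 with cisplatin ended without vehicle replicate 2, or with median centring (adjusted p = 0.057 to 0.0624). VPS53 with osimertinib was no longer called without osimertinib replicates 1, 2 or 3, cisplatin replicate 2 or vehicle replicates 1, 2 or 3, or with no level filter or median centring or a plain variance model or a replicate block (adjusted p = 0.0541 to 0.187). The VPS51 call with osimertinib was lost with the mean over all rows (adjusted p = 0.0651).

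The ESCRT members went both ways. VPS25 and VPS36 are subunits of ESCRT-II, and moved in opposite directions: VPS25 rose by 0.40 (SE 0.0918, adjusted p = 0.00505) with osimertinib and 0.35 (SE 0.0918, adjusted p = 0.0111) with cisplatin, and VPS36 fell at a log2 difference of -0.30 (adjusted p = 0.0354) with osimertinib and -0.33 (adjusted p = 0.0219) with cisplatin. The log2 levels of VPS25 were 7.19, 6.99 and 6.99 with osimertinib, 6.82, 7.10 and 7.10 with cisplatin and 6.69, 6.62 and 6.67 with vehicle, and those of VPS36 were 6.08, 6.03 and 6.11 with osimertinib, 5.91, 6.05 and 6.16 with cisplatin and 6.42, 6.20 and 6.51 with vehicle, without overlap between treated and vehicle arrays for either. VPS4B, the ATPase that takes ESCRT-III apart, rose with osimertinib by 0.34 (adjusted p = 0.00332) and was at 0.12 (adjusted p = 0.239) with cisplatin, and its relative VPS4A was at 0.17 with osimertinib and 0.16 with cisplatin. In ESCRT-I, VPS37C fell with cisplatin at a log2 difference of -0.37 (adjusted p = 0.0335) and was at -0.30 (adjusted p = 0.0823) with osimertinib, while VPS28 (-0.06 with osimertinib and -0.07 with cisplatin), VPS37A (-0.04 with osimertinib and -0.04 with cisplatin) and VPS37B (-0.18 with osimertinib and -0.11 with cisplatin) were not called. A second, dimmer row for VPS37B gave -0.38 with osimertinib and -0.50 with cisplatin, both called in a fit over all named rows (adjusted p = 0.0158 and 0.00315), so the rows of this gene disagree. Over the 8 genes 2 rose and 1 fell with osimertinib and 1 rose and 2 fell with cisplatin. The called share was 37.5% with each drug, near the 30.6% of all tested genes with osimertinib and 31.0% with cisplatin. All tested genes also went both ways, 16.9% higher and 13.7% lower with osimertinib and 16.5% higher and 14.5% lower with cisplatin. The call of VPS25 with cisplatin ended without cisplatin replicate 3 (adjusted p = 0.0531). VPS36 with osimertinib was no longer called without osimertinib replicates 1, 2 or 3 or vehicle replicates 1 or 3, or with no level filter or quantile normalization on top or median centring (adjusted p = 0.056 to 0.145). The VPS36 call with cisplatin was lost without cisplatin replicate 1 or vehicle replicates 1 or 3, or with median centring (adjusted p = 0.0567 to 0.0995). The call of VPS37C with cisplatin ended without cisplatin replicate 1 or vehicle replicates 1, 2 or 3, or with no level filter or median centring (adjusted p = 0.0674 to 0.103).

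The listed ESCRT genes and ESCRT partners with other symbols, USP8 and STAMBP among the partners, were called in 1 direction. Of 17 tested, 7 rose with osimertinib, USP8 among them, and 8 with cisplatin. By limma 0 fell with either drug (at an unadjusted p under 0.05, 0 with osimertinib and 0 with cisplatin). At that unadjusted p, 17.8% of all tested genes were lower with osimertinib and 18.5% with cisplatin. Over all tested genes 16.9% were called higher and 13.7% lower with osimertinib, and 16.5% higher and 14.5% lower with cisplatin. The 3 with the smallest p encode parts of the ESCRT-III filament. CHMP2B had log2 levels of 5.67, 5.64 and 5.38 with osimertinib, 5.53, 5.52 and 5.66 with cisplatin and 4.32, 4.70 and 4.63 with vehicle, and rose 2.01-fold with osimertinib (1.01, SE 0.123, adjusted p = 4.26e-05) and 2.03-fold with cisplatin (1.02, SE 0.123, adjusted p = 3.77e-05). CHMP5 rose by 0.67 with osimertinib and 0.81 with cisplatin, and CHMP1A by 0.52 with osimertinib and 0.63 with cisplatin. The median of these 17 genes was 0.22 with osimertinib and 0.17 with cisplatin, against 0.04 with osimertinib and 0.03 with cisplatin over all tested genes.

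The VPS13 genes fell together with cisplatin, and most of them with osimertinib. With osimertinib 3 of 4 genes fell and with cisplatin 4 of 4, where 13.7% of all tested genes fell with osimertinib and 14.5% with cisplatin, and for each of the 4 the treated arrays lay below the 3 vehicle arrays. VPS13C, which links the endoplasmic reticulum with late endosomes, had log2 levels of 7.50, 7.45 and 7.41 with osimertinib, 7.03, 7.26 and 7.31 with cisplatin and 7.66, 7.76 and 7.82 with vehicle; it fell at a log2 difference of -0.29 (SE 0.0813, adjusted p = 0.0151) with osimertinib and -0.54 (SE 0.0813, adjusted p = 0.000236) with cisplatin. VPS13B, a Golgi protein, had 7.41, 7.31 and 7.45 with osimertinib, 7.16, 7.36 and 7.34 with cisplatin and 7.72, 7.73 and 7.73 with vehicle and fell at a log2 difference of -0.34 (SE 0.0712, adjusted p = 0.00275) with osimertinib and -0.44 (SE 0.0712, adjusted p = 0.000409) with cisplatin. Its vehicle arrays were nearly equal. VPS13A, found where mitochondria and lipid droplets meet the endoplasmic reticulum, fell at a log2 difference of -0.38 (adjusted p = 0.0176) with osimertinib and -0.42 (adjusted p = 0.0105) with cisplatin, at 6.02, 5.75 and 6.02 with osimertinib, 5.70, 6.02 and 5.95 with cisplatin and 6.27, 6.25 and 6.41 with vehicle. VPS13D, which acts at mitochondria, was at -0.30 (adjusted p = 0.0668) with osimertinib and fell at a log2 difference of -0.37 (adjusted p = 0.0299) with cisplatin, at 6.23, 6.23 and 6.04 with osimertinib, 5.84, 6.34 and 6.13 with cisplatin and 6.42, 6.42 and 6.57 with vehicle. The promoters of VPS13A, VPS13C and VPS13D are printed above. The non-coding VPS13A-AS1 lay below the level limit. VPS13A with osimertinib was no longer called without osimertinib replicate 2 or vehicle replicate 3, or with median centring (adjusted p = 0.063 to 0.0862). The VPS13A call with cisplatin was lost without vehicle replicate 3 (adjusted p = 0.0502). The call of VPS13C with osimertinib ended without osimertinib replicate 3 or vehicle replicate 3, or with median centring (adjusted p = 0.0529 to 0.0809). VPS13D with cisplatin was no longer called without cisplatin replicates 1 or 3 or vehicle replicates 1, 2 or 3, or with no level filter or median centring (adjusted p = 0.0535 to 0.112).

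VPS45 was the largest fall of all 61 members with both drugs. It encodes the Sec1/Munc18 protein that readies endosomal SNAREs for fusion, and had log2 levels of 6.92, 6.63 and 6.84 with osimertinib, 6.59, 6.58 and 6.87 with cisplatin and 7.21, 7.38 and 7.49 with vehicle, all treated arrays lying below all vehicle arrays. The fall was 1.48-fold with osimertinib, -0.56 (SE 0.106, adjusted p = 0.00121), and 1.6-fold with cisplatin, -0.68 (SE 0.106, adjusted p = 0.000292). VPS9D1, whose VPS9 domain is of the kind that activates RAB5, was at 0.18 with osimertinib and 0.26 with cisplatin, and VPS72, a chromatin protein despite its name, at 0.25 with osimertinib and 0.32 with cisplatin; neither was called.

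The non-coding members were 4 long non-coding RNAs and 2 pseudogenes, of which RAB30-DT and VPS9D1-AS1 were tested. RAB30-DT, transcribed divergently from RAB30, fell with osimertinib at a log2 difference of -0.41 (adjusted p = 0.0333) and was at -0.37 (adjusted p = 0.051) with cisplatin, and VPS9D1-AS1 was at 0.13 with osimertinib and 0.31 with cisplatin. Of the 16 members under the level limit, a fit with no limit called 1 with each drug, SNX32, at 0.53 with osimertinib and 0.58 with cisplatin (adjusted p = 0.0252 with osimertinib and 0.0148 with cisplatin, in a fit that called 14.8% and 14.7% of 14884 genes). SNX32 is a close relative of SNX6. The others were the protein-coding RAB3IP, RAB3IL1, SNX7, SNX16, SNX21, SNX22, SNX24, SNX31, VPS37D and VPS50, the non-coding RAB11B-AS1 and VPS13A-AS1, and SNX29P1 and SNX29P2, for which no direction is given. RAB6D, the only RAB GTPase named in the table, was at a mean of 1.54, with differences of -0.04 with osimertinib and -0.14 with cisplatin, not called. The RAB30-DT call with osimertinib was lost without osimertinib replicates 2 or 3 or vehicle replicates 1, 2 or 3, or with no level filter or quantile normalization on top or median centring or a replicate block (adjusted p = 0.053 to 0.15).

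Genes that work with these members but carry other symbols were taken from 6 lists with 175 genes, 113 of them named and 99 tested. With osimertinib 24 rose and 7 fell, and with cisplatin 23 rose and 6 fell. In all 31.3% of these genes were called with osimertinib and 29.3% with cisplatin, near the 30.6% and 31.0% of all tested genes. For the lists below, 16.9% of all tested genes were called higher and 13.7% lower with osimertinib, and 16.5% higher and 14.5% lower with cisplatin. MON1B, part of the factor that switches RAB7 on at late endosomes, rose by 0.80 (SE 0.11, adjusted p = 0.000112) with osimertinib and 0.96 (SE 0.11, adjusted p = 2.84e-05) with cisplatin, in a list of RAB activators, inactivators and escorts with 5 of 23 higher and 3 lower with osimertinib and 3 and 2 with cisplatin. DENND1B, an activator of RAB35, fell there at a log2 difference of -0.64 with osimertinib and -0.53 with cisplatin. Other RAB effectors had 5 of 21 higher and 2 lower with osimertinib and 7 and 2 with cisplatin. BICD1, a dynein adaptor for RAB6 carriers, fell at a log2 difference of -0.47 with osimertinib and -0.60 with cisplatin. Its relative BICD2 went the other way and rose by 0.53 with osimertinib and 0.36 with cisplatin. GCC1, at a mean of 4.32 close to the level limit, rose by 0.64 with osimertinib and 0.43 with cisplatin. Of 14 genes of the WASH and commander complexes and retromer cargo, 4 rose and 2 fell with osimertinib and 2 and 2 with cisplatin. There the mannose-6-phosphate receptor M6PR, a retromer cargo that carries lysosomal enzymes, had log2 levels of 6.68, 6.62 and 6.67 with osimertinib, 6.40, 6.61 and 6.52 with cisplatin and 5.96, 6.04 and 5.97 with vehicle and rose by 0.66 (SE 0.0818, adjusted p = 4.85e-05) with osimertinib and 0.52 (SE 0.0818, adjusted p = 0.000346) with cisplatin. Among 14 SNAREs and tether partners, 3 rose with osimertinib and 2 with cisplatin, with 0 falls by limma (0 with osimertinib and 1 with cisplatin at an unadjusted p under 0.05); VAMP7, a SNARE of lysosome fusion, rose by 0.45 with osimertinib and 0.37 with cisplatin and the endosomal SNARE STX12 by 0.55 with osimertinib and 0.42 with cisplatin. Of 10 genes of class III PI3-kinase and its lipids 0 were called with osimertinib by limma (1 higher and 0 lower at an unadjusted p under 0.05) and 1 with cisplatin, the phosphatase MTMR4 at 0.46. The call of BICD1 with osimertinib ended with the mean over all rows (adjusted p = 0.0648). With cisplatin the BICD2 call was lost in 2 alternative fits (adjusted p = 0.0611 to 0.0647) and the GCC1 call in 1 (adjusted p = 0.0575).

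**Figure D3:**
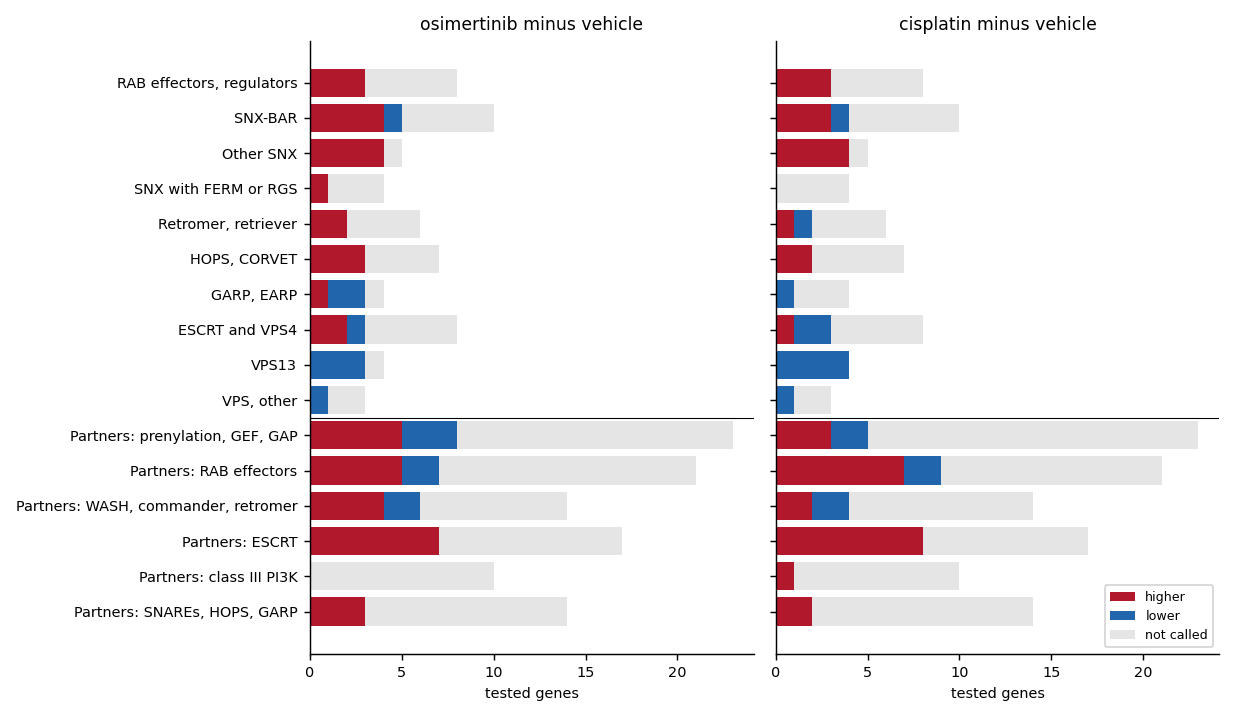
Number of tested genes (x axis) called higher (red), lower (blue) or not called (grey) with osimertinib (left) and cisplatin (right), by role; roles above the line are members and those below are partner genes. VPS13 and the role VPS, other, hold falls only. The ESCRT partners hold rises only, as do several other roles, and the ESCRT and VPS4 members hold both.

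The drugs were then set against each other directly. Of 61 members, 4 were higher with osimertinib than with cisplatin and 0 were lower by limma (6.56%; 1.75% of all tested genes were called, 0.766% higher and 0.981% lower). At an unadjusted p under 0.05, 14 members were higher (23.0%; 5.76% of all tested genes) and 2 lower (3.28%; 5.93%). RAB11FIP4 averaged 7.26 ± 0.04 with osimertinib and 6.56 ± 0.20 with cisplatin (SD, n = 3 each), 1.62-fold higher, at 0.70 (SE 0.109, adjusted p = 0.00452). SNX30 averaged 6.41 ± 0.08 with osimertinib and 5.90 ± 0.20 with cisplatin (0.51, SE 0.107, adjusted p = 0.0316), SNX4 7.46 ± 0.19 with osimertinib and 7.01 ± 0.12 with cisplatin (0.45, SE 0.0968, adjusted p = 0.0341) and SNX3 8.14 ± 0.13 with osimertinib and 7.80 ± 0.09 with cisplatin (0.34, SE 0.0761, adjusted p = 0.041). The difference in SNX30 lay in its fall with cisplatin, whereas for the other 3 both drugs were above vehicle. Osimertinib and cisplatin arrays did not overlap for 17 members (27.9%; 14.3% of all tested genes), and 44 of 61 estimates were above 0 (72.1%; 53.1%). The call of RAB11FIP4 held in every alternative fit that was run. SNX30 between the drugs was no longer called without osimertinib replicates 1, 2 or 3, cisplatin replicates 1 or 2 or vehicle replicate 2, or with no level filter or a plain variance model or a replicate block (adjusted p = 0.0509 to 0.12). The SNX4 call between the drugs was lost without osimertinib replicates 1 or 2, cisplatin replicates 1 or 3 or vehicle replicates 1, 2 or 3, or with no level filter or a plain variance model (adjusted p = 0.0514 to 0.134). The call of SNX3 between the drugs ended without osimertinib replicates 1 or 2, cisplatin replicates 1, 2 or 3 or vehicle replicates 1, 2 or 3, or with no level filter or median centring or a plain variance model or a replicate block (adjusted p = 0.0559 to 0.18). The count of 4 came to 1 without osimertinib replicate 1 or 2, cisplatin replicate 1 (the array that stood apart) or vehicle replicate 2, and to 2 without cisplatin replicate 2 or 3 or vehicle replicate 1 or 3.

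For the other 57 members no difference between the drugs was called, and for 54 of these the 95% interval lay within 1.5-fold either way; the exceptions were VPS51, SNX2 and RAB11FIP2. VPS51 was at 0.46 with an interval of 0.16 to 0.77, SNX2 at 0.35 (0.09 to 0.60) and RAB11FIP2 at 0.33 (0.07 to 0.59). Some members that changed at least 1.5-fold against vehicle with a drug had small differences here: VPS18 at 0.00 (-0.27 to 0.27), VPS45 at 0.12 (-0.11 to 0.35) and SNX33 at -0.06 (-0.34 to 0.22). Retromer subunits were at 0.29 for VPS35 (0.09 to 0.50), 0.18 for VPS26A (0.03 to 0.33) and 0.31 for VPS26B (0.11 to 0.52), none past the adjusted threshold. Of the VPS13 genes VPS13C differed most, 0.25 (0.07 to 0.43). SNX20, which rose 1.58-fold with cisplatin, was the lowest estimate, -0.26 (-0.50 to -0.03). Of the 99 partner genes 1 was called, DENND4C, an activator of RAB10, at 0.37 (SE 0.071, adjusted p = 0.0174), named here after its value was seen. DENND4C between the drugs was no longer called without osimertinib replicates 2 or 3 or cisplatin replicate 3, or with a plain variance model (adjusted p = 0.0521 to 0.0859).

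**Figure D4:**
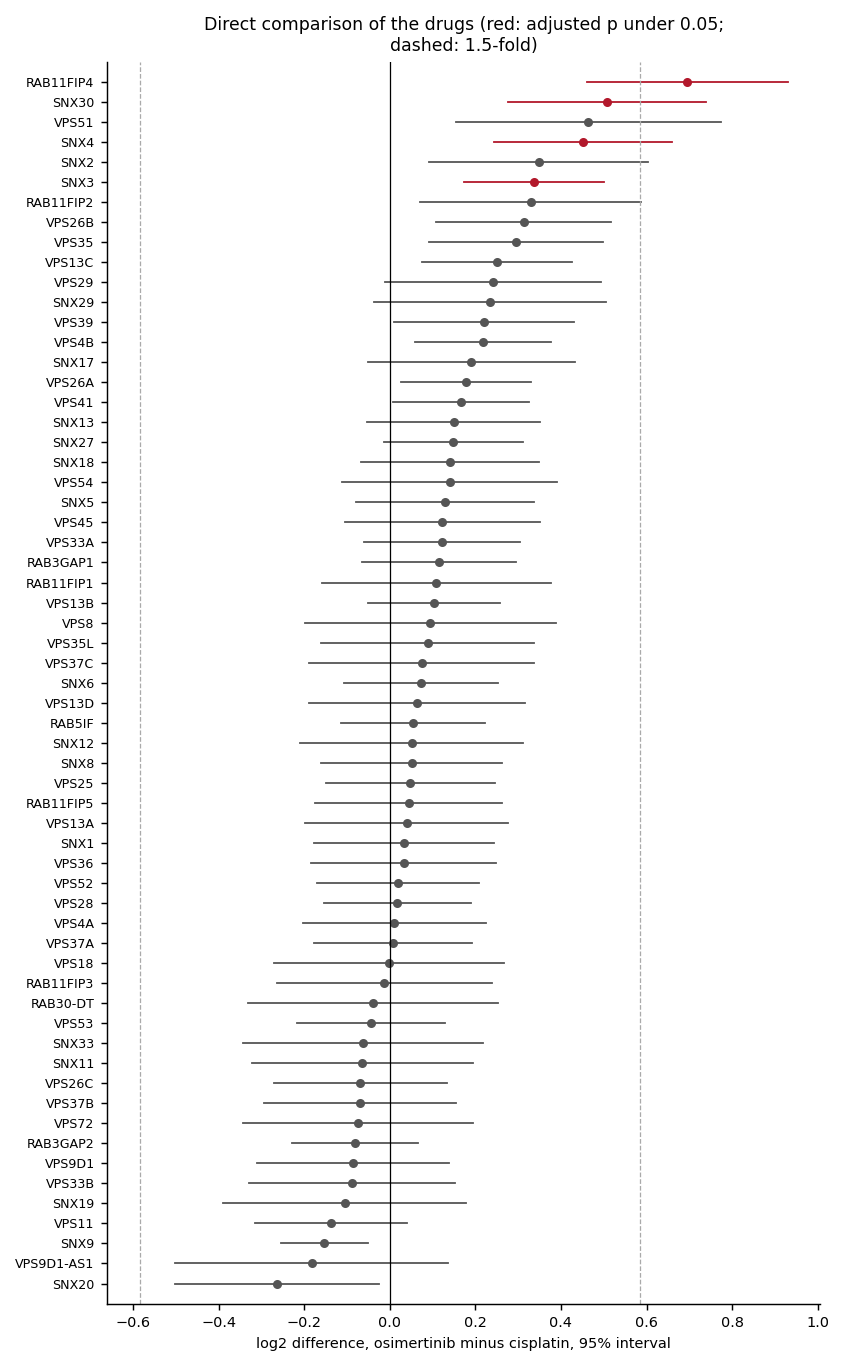
Log2 difference of osimertinib minus cisplatin (x axis) with 95% intervals for the 61 tested members, sorted by estimate; red marks an adjusted p under 0.05 and dashed lines mark 1.5-fold. RAB11FIP4, SNX30, SNX4 and SNX3 are the called members, all to the right of 0.

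Members that fell had a longer median span than members that rose, and the VPS13 genes among them were the longest. Outside the VPS13 genes, the cisplatin falls spanned 11 kb (VPS29) to 136 kb (SNX30). The osimertinib falls outside this family spanned 1.6 kb (RAB30-DT) to 206 kb (VPS53). In RefSeq the 9 that fell with osimertinib had a median span of 122 kb and the 20 that rose 37.1 kb; with cisplatin the 10 that fell had 107 kb and the 14 that rose 28.5 kb. The same lean was seen over all tested genes, at 43.6 kb for falls and 24.7 kb for rises with osimertinib and 47 kb and 21.3 kb with cisplatin. Spearman's rho between span and log2 difference was -0.24 with osimertinib and -0.37 with cisplatin across the 61 members, and -0.14 with osimertinib and -0.22 with cisplatin across 7442 genes; these are across genes, which share the same arrays and are not independent replicates. Of 18 members spanning at least 100 kb, 5 fell with each drug (27.8%). Among 1209 such genes 23.5% fell with osimertinib and 26.2% with cisplatin. The long members that fell with cisplatin were VPS13A, VPS13B, VPS13C, VPS13D and SNX30. Those that fell with osimertinib were VPS13A, VPS13B, VPS13C, SNX9 and VPS53. The VPS13 genes span from 208 to 864 kb. The part of gene length in their fall was not tested.

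**Figure D5:**
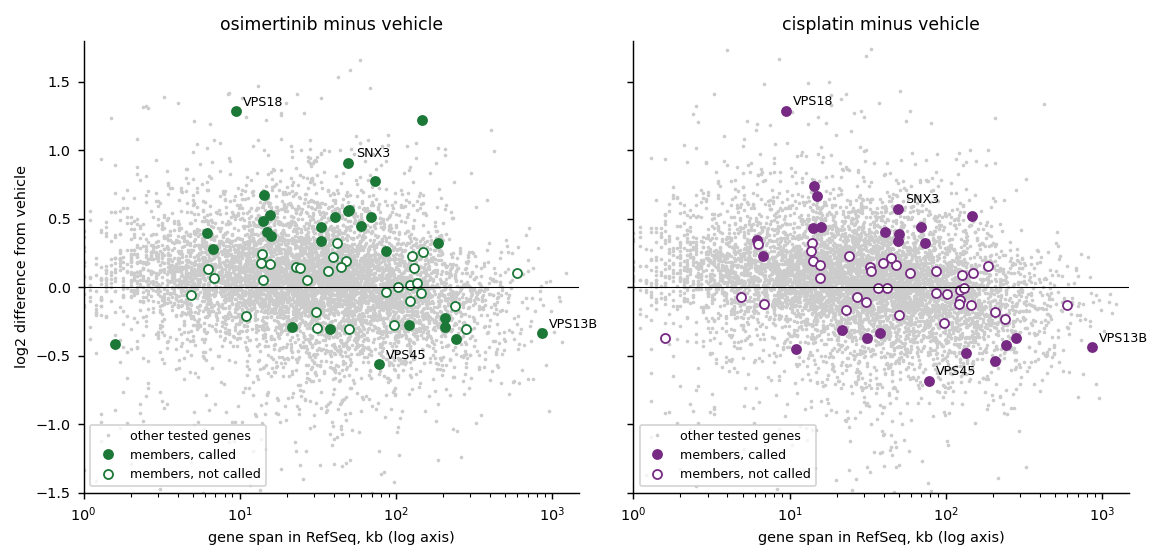
Log2 difference from vehicle (y axis) against gene span (x axis, log scale) for osimertinib (left) and cisplatin (right); filled points are called members, open points members not called and grey dots other tested genes within the plotted range. VPS13B, the longest member at 864 kb, lies below 0 in both panels, and VPS18, with a short span, lies highest.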

How the data were processed

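Total RNA of 9 THP-1 samples was read on Affymetrix Human Gene 2.0 ST arrays, 3 each with osimertinib, cisplatin and vehicle; groups and replicate numbers follow the labels, and the series' design text calls the replicates independent. Per the labels, arrays were run and summarized to gene level by a service provider, and the submitters' processing notes name Affymetrix Power Tools. Deposited values run from 0.65 to 13.17 and were taken to be log2; how the authors summarized probes and corrected background is not given in the sources used here. Sorted columns lay 0.0268 from their common mean on average, so distributions were close but not equal, and added quantile normalization still moved values. Levels are used as the authors deposited them.

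The platform annotation names 16098 of 53617 rows with 1 gene each and 0 with several; all Entrez identifiers matched RefSeq on GRCh38.p14. For 14884 genes the row with the highest mean was kept, and the 7442 at or above the median gene mean were tested. limma 3.58.1 in R 4.3.3 fitted 3 group means (trend and robust empirical Bayes, 6 residual degrees of freedom), with two-sided p-values adjusted by Benjamini-Hochberg over 7442 genes within a comparison and called under 0.05. SEs are moderated and intervals 95%. The number of arrays limits precision. Of the tested members, 13 had equal values within a group, which makes a spread look too small. Among them were SNX3, VPS4B, VPS13A and VPS13D, which were called in at least 1 comparison. The labels share replicate numbers, but 1 of 9 same-numbered pairs had deviations correlated over 0.1 (range -0.23 to 0.13), so they were not treated as pairs.

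Members, lists, motifs and tests were chosen with earlier results of these data known. Named by rule were, for each drug, the 8 largest called rises and falls whose treated arrays did not overlap the vehicle arrays. Added were up to 4 members of each role with the smallest p, 10 fixed members and 3 genes per partner list. Of the partner genes so picked, GDI2, COMMD7, CCDC93, VAMP3, MTM1 and PIP4P1 are not described. Other members are named so that every one is accounted for. Alternatives were 2 other level filters, 2 scalings, a plain variance model without trend or robust fitting, the mean over rows, a replicate block, a 1.5-fold limit and leaving out each array.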

Additional observations from a re-analysis of the deposited data

How the results depend on the processing

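With a limit of 1.5-fold added, 5 members were called with osimertinib, 4 with cisplatin and 1 between the drugs. All other settings kept the counts against vehicle within 1.5 times, from 17 to 34 for cisplatin and 22 to 34 for osimertinib; leaving out single arrays gave 22 to 33 members with osimertinib and 17 to 25 with cisplatin. The count between the drugs, 4, was less stable. It came to 1 with no level filter, in a fit over more genes, and to 1 with a plain variance model. With a replicate block it was 2, and on leaving out single arrays 1 to 3. The cause was not tested. Against vehicle the replicate block gave 27 members with osimertinib and 23 with cisplatin; the labels' numbers did not pair the arrays. Of the called members, 17 of 29 with osimertinib, 12 of 24 with cisplatin and 1 of 4 between the drugs were called under every alternative fit, and 0 changed direction. Over all tested genes the median difference was 0.11 with quantile normalization on top for each drug, and 0.10 with osimertinib and 0.07 with cisplatin with median centring, against 0.04 and 0.03 as deposited. Without background measurements, the level limit is the only guard against dim rows.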
